A study of Mus musculus with 3 samples.

Results

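The regions described here are stretches of open chromatin that had an ATAC-seq peak in every library of the series, but whose peak stood much higher in the ordering of the control library than in that of either HNF4 knockout library. They were chosen by the peak scores themselves. Each list was cut to its highest-scoring peaks, as many as the shortest list (the control's) holds, peaks overlapping by 1 bp or more were merged into regions, and the highest score of each region was turned into a percentile rank among the regions of its library (0 for the weakest, 100 for the strongest). A region was kept if it lay on chromosomes 1 to 19, had a peak in all 3 libraries, and had a control rank at least 25 points above both knockout ranks. Of 26766 merged regions, 8978 were autosomal and shared by all libraries, and 490 of these were higher in the control by this rule. They are called control-high regions below.

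ATAC-seq marks accessible DNA through the insertion of sequencing adapters by the Tn5 transposase. The small intestine of E16.5 mouse embryos was dissociated, epithelial cells were pulled out with magnetic beads that bind EpCAM, a protein of the epithelial surface, and 20000 cells went into each library. The control group held 1 library, of genotype Hnf4gCrispr/+, a heterozygote with 1 mutant copy of Hnf4g and no Cre or floxed Hnf4a allele named in its label. The DKO (double knockout) group held 2 libraries, replicates 1 and 2, of genotype Shh-Cre; Hnf4af/f; Hnf4gCrispr/Crispr, in which Hnf4a is deleted only where the Shh-Cre driver has been active and Hnf4g is mutant in both copies. The groups therefore share at least 1 mutant Hnf4g copy and differ in the Cre driver, the floxed alleles and the number of Hnf4g mutant copies at once. The labels do not say whether a library came from 1 embryo or from several. With a single control library the genotype was not tested, and any property of that library cannot be told apart from its genotype.

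HNF4A and HNF4G are related nuclear receptors that bind DNA at repeated half-sites, mostly in enhancers and promoters of genes of the liver, kidney and gut. In the intestinal epithelium they are known for driving the enterocyte programme, which covers the brush border, nutrient uptake and lipid handling. Shh is expressed in the early gut endoderm, so Shh-Cre acts broadly in the epithelium that descends from it. Every control-high region had a peak in each library, so a low rank stands for a weak peak among those kept and not for a missing one.

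The positions are those of the mouse assembly mm9, as named in the submitters' processing notes. The gene and promoter tables used here belong to GRCm38, a different assembly, so nearest genes, start sites, binding sequences, the EpCAM-positive cells' marker genes and the Hnf4a and Hnf4g loci were not analysed here. Each region is therefore named by its position, its peaks and its surroundings.

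All peaks were windows of 601 bp, and sequencing depth is unknown. DKO replicate 1 had 18268 peaks, 1291 more than the control, and DKO replicate 2 had 26648, 9671 more than the control, and these surplus peaks of lowest score were left out. The lowest scores kept were 10 for the control and 14 and 18 for DKO replicates 1 and 2. The 8978 shared autosomal regions had median scores of 25, 33 and 34 in the same order. The scores thus ran higher in the DKO libraries over regions in general, which is why ranks and not scores were compared.

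The 490 control-high regions made up 5.46% of the shared autosomal regions. Set against the same rule turned the other way, 707 regions (7.87%) had a control rank at least 25 points under both DKO ranks. These are called control-low regions. The balance of the 2 counts depended on the scale. Ranks taken among shared regions only gave 658 higher and 620 lower, scores divided by the library median and compared at 1.5-fold gave 455 and 336, and all deposited peaks gave 269 and 1237. The rule was also applied with each DKO library in the control's place. DKO replicate 1 ranked higher than both other libraries in 404 regions (4.50%) and lower in 357 (3.98%). DKO replicate 2 ranked higher than both others in 250 regions (2.78%) and lower in 494 (5.50%). The control-high share was above the shares in which either DKO library stood highest, and close to the share in which DKO replicate 2 stood lowest. This order depended on the list length. With all deposited peaks the control stood highest in 2.66% of shared regions and DKO replicate 2 in 6.97%. With 12000 peaks per list the control stood highest in 5.39% and DKO replicate 1 in 5.57%. A shift of this size in 1 library against the rest was therefore not confined to the control.

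In the control, the scores of the control-high regions ran from 18 through a median of 29 to 72. In DKO replicate 1 they ran from 14 through 20 to 32, and in DKO replicate 2 from 18 through 23 to 36. The matching percentile ranks had medians of 76.6, 29.0 and 28.9. The regions were thus in the upper part of the control list and in the lower part of both DKO lists as cut here. The scores of the 3 libraries overlapped. In the uncut lists the median ranks of these regions were 34.0 in DKO replicate 1 and 54.7 in DKO replicate 2. Control-low regions showed the opposite, with a median control score of 16 and median scores of 34 and 37 in DKO replicates 1 and 2. These values follow from the rule and are a description.

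**Figure D1:**
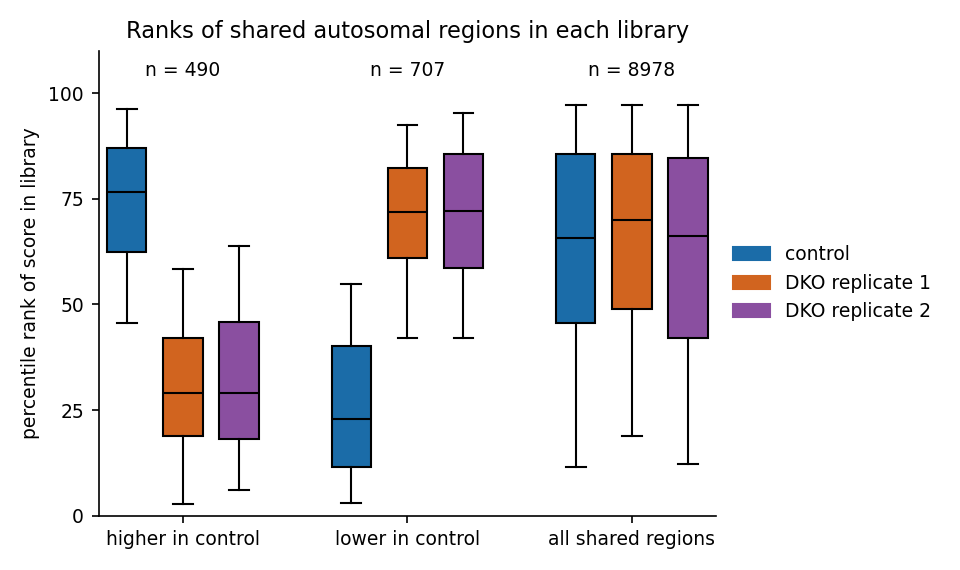
Percentile ranks of the region scores (y axis, in points from 0 to 100) in the control and both DKO libraries, for regions ranking higher in the control, regions ranking lower in it and all shared autosomal regions. Boxes span the quartiles with the median as a line, and whiskers reach the 5th and 95th percentiles; the medians of the 490 control-high regions are 76.6 in the control and 29.0 and 28.9 in DKO replicates 1 and 2.

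The margin, meaning the control rank minus the higher of the DKO ranks, had a median of 34.7 points and reached 87.7. It lay between 25 and 30 points in 153 regions, between 30 and 40 in 182, between 40 and 50 in 98, and above 50 in 57. Margins under 40 points were thus more frequent than wider ones. The DKO libraries are the only replicates of 1 genotype. Their ranks differed by a median of 10.7 points within control-high regions, with quartiles of 4.7 and 21.0 and a highest gap of 59.6. The rule put both DKO ranks at least 25 points under the control rank, which limits this gap. The gap here is therefore not a measure of replicate error over shared regions in general. The gap between the DKO ranks was itself 25 points or more in 78 of the 490 regions. On the lists as cut, neither DKO library was consistently the lower. DKO replicate 1 ranked above DKO replicate 2 in 256 regions and below it in 234. This balance did not hold in the uncut lists, where the median rank was 34.0 in DKO replicate 1 and 54.7 in DKO replicate 2.

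A rank difference of 25 points corresponds to few score units in the middle of a list. A control score of 20 had a rank of 45.5 and a score of 25 had a rank of 65.7. In DKO replicate 1 the same scores had ranks of 29.0 and 49.0, and in DKO replicate 2 of 12.3 and 38.0. A step of 1 score unit moved the rank by up to 6.1, 5.5 and 6.2 points in the 3 libraries. The control score itself was above both DKO scores in 443 control-high regions, equal to the higher of them in 19 and below it in 28. The control score was a median of 1.17 times the higher DKO score. After each score was divided by the median of its library over shared regions, the ratio was 1.59 (quartiles 1.47 and 1.82, highest 3.63). The ratio reached 1.5 in 333 regions and 2 in 62.

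The dependence on single score units was measured by moving the scores against the rule, a check chosen after the data had been seen. With the control score lowered by 1 and both DKO scores raised by 1, 315 of the 490 regions still had a margin of 25 points. With a shift of 2 units 194 did, and with a shift of 3 units 120 did. Most of the 490 regions thus depended on differences of no more than 3 units in each library.

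**Figure D2:**
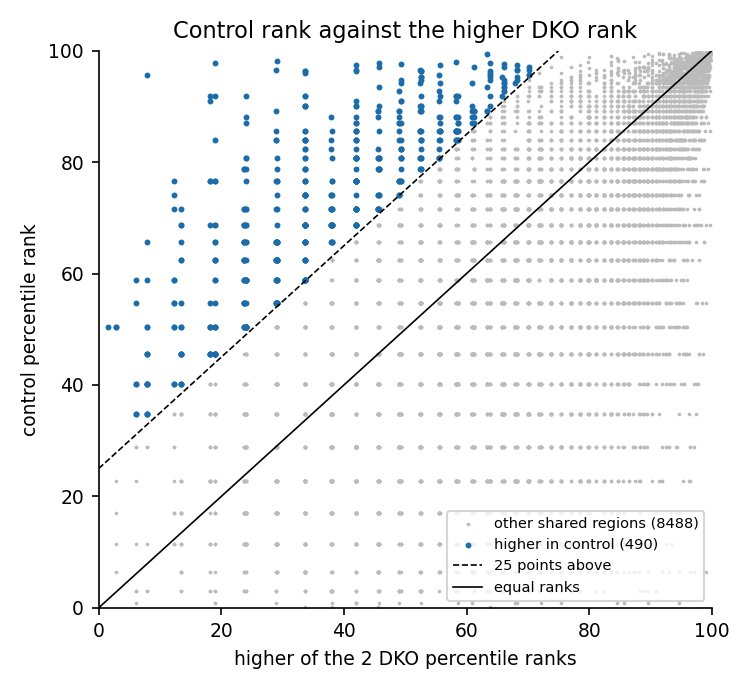
Control percentile rank (y axis, points) against the higher of the DKO percentile ranks (x axis, points) for the 8978 shared autosomal regions, 1 dot per region. The 490 control-high regions lie above the dashed line, which marks 25 points; the grid of dots shows that the whole-number scores leave few distinct ranks among weak peaks.

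The control-high regions were spread over the control ranks above the floor that the rule sets. None had a control rank under 25, where the rule allows none. They made up 2.13% of the shared regions with a control rank from 25 to 50, 7.03% from 50 to 75, 8.67% from 75 to 90, 6.05% from 90 to 95 and 5.06% from 95 to 100. In all, 255 had a control rank of 75 or more and 89 of 90 or more. Regions that were strong in the control and weak in both DKO libraries were few. A control rank of 75 or more with both DKO ranks under 25 was found in 20 regions, and a control rank of 90 or more with both DKO ranks under 50 in 32.

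The widest margin was found at chr8:129260366-129261152. It scored 46 in the control against 16 and 19 in DKO replicates 1 and 2, with ranks of 95.6, 7.9 and 6.1 and a margin of 87.7 points. The control peak was among the strongest 5% of its library. Both DKO peaks were among the weakest 10% of the regions kept for theirs, after the surplus peaks of lowest score had been left out. Its surroundings were mixed. A second control-high region lay 28434 bp away at chr8:129289587-129290290, with scores of 24, 20 and 22 in the control and DKO replicates 1 and 2. On the other side, 69612 bp away, the shared region chr8:129190131-129190753 stood lower in the control, with scores of 21, 40 and 34 and ranks of 50.4, 81.2 and 66.2. A DKO-only region, where both DKO lists had a peak but the control list did not, lay 92060 bp away. A control-only region, with a peak in the control alone among the peaks kept, lay 94353 bp away. At control-only regions a DKO peak can be among the surplus peaks left out. Adjacent regions of this locus therefore stood apart in opposite directions.

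The second margin belonged to chr6:98792816-98793420. It scored 54 in the control against 18 and 21 in DKO replicates 1 and 2, with ranks of 97.8, 19.0 and 18.1. The peak centres of the 3 libraries lay within 4 bp of each other, so the same position was measured in each. This region was isolated. The 1 other region within 100 kb was a control-only peak 5302 bp away with a score of 21, and the nearest other shared region was 833781 bp away.

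The third region, chr16:88631558-88632263, scored 40 in the control against 15 and 21 in DKO replicates 1 and 2, with ranks of 91.9, 2.8 and 18.1. It belonged to a densely accessible stretch with 9 other regions within 100 kb, of which 2 were control-high. At a distance of 30576 bp, chr16:88599818-88600981 was strong in all libraries, with scores of 36, 35 and 53. At 78621 bp, chr16:88710885-88711595 had scores of 15, 20 and 46. DKO replicate 2 ranked above DKO replicate 1 at these neighbours, with 90.3 against 73.7 and 84.6 against 29.0, as well as at the region itself.

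The fourth region, chr8:105871289-105872183, had scores of 40, 18 and 19 in the control and DKO replicates 1 and 2. The fifth, chr10:36275000-36275644, had scores of 39, 17 and 21. Both lacked another shared region within 100 kb. Around the fourth lay 2 control-only regions with scores of 17 and 15 and a DKO-only region with scores of 31 and 53. Around the fifth lay 2 DKO-only regions, with scores of 29 and 39 and of 18 and 27 in DKO replicates 1 and 2, and no control-only region. At both regions, peaks restricted to the DKO libraries thus lay within 100 kb of a region in which these libraries ranked low. This was not a trait of control-high regions in general, whose nearest DKO-only region was a median of 170664 bp away, against 159990 bp over all shared regions.

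The sixth region, chr18:46386136-46386980, had scores of 56, 20 and 21 and ranks of 98.2, 29.0 and 18.1. A second control-high region lay 27104 bp away at chr18:46358276-46359031, with scores of 35, 22 and 32. The 2 other shared regions within 100 kb had scores of 23, 18 and 30 and of 14, 16 and 23, with margins of 3.1 and -17.5 points. The seventh region, chr1:73676736-73677440, had scores of 40, 19 and 21, and its nearest other region was a DKO-only region at 52571 bp. The eighth, chr12:36211793-36212467, had scores of 49, 18 and 23, and a shared region lay 6826 bp away.

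The next regions were lower in the control list. At chr5:100061780-100062507 the scores were 33, 18 and 20, with a control-only region 6675 bp away. At chr1:174312098-174312873 they were 29, 15 and 20, with 9 other regions within 100 kb, none of them control-high. At chr13:23186155-23186834 they were 36, 19 and 20, with no other region within 100 kb. At chr3:28749166-28749774 they were 35, 19 and 22, and the control centre was 8 bp and 1 bp from the DKO centres. The ranks of these regions in the control ran from 76.6 to 88.2.

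The last of the 15 regions named by the rule were strong control peaks. The region chr8:99392350-99393557 had scores of 48, 21 and 23 and no other region within 100 kb. It was also the widest of the 15, at 1208 bp, because the control centre was 607 bp from that of DKO replicate 1, more than the width of a peak. These peaks did not overlap each other and were joined through the peak of DKO replicate 2. The region chr8:125512722-125513539 had scores of 48, 21 and 21, and chr5:134894312-134895039 had 47, 21 and 20. The last had 3 control-only regions and 1 DKO-only region within 100 kb. Of the 15 regions, 4 were on chromosome 8, and 3 had another control-high region within 100 kb.

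**Figure D3:**
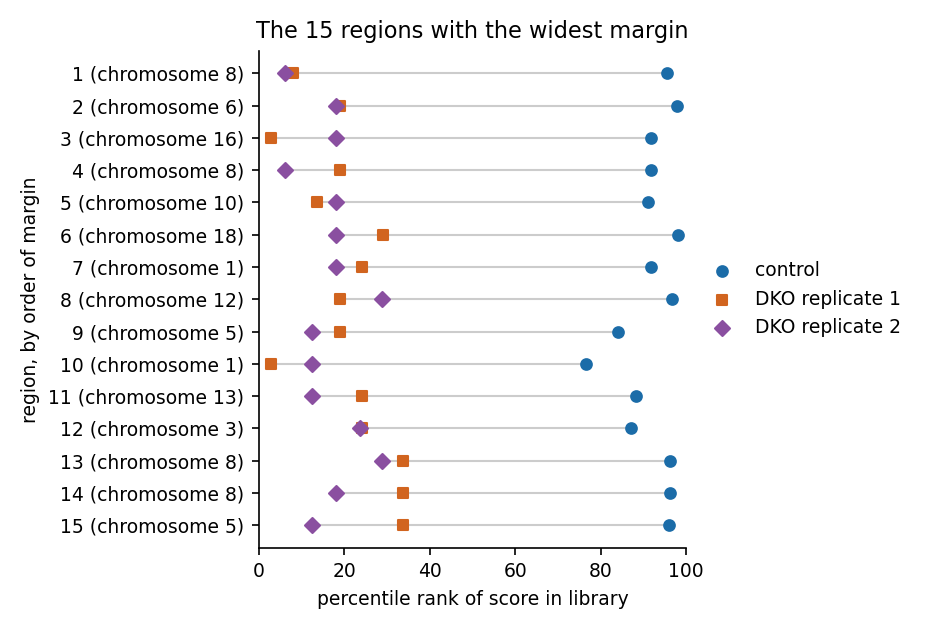
Percentile ranks (x axis, points) of the 15 control-high regions with the widest margin (y axis, in order of margin), with 1 symbol per library. The control ranks lie between 76.6 and 98.2 and all DKO ranks lie at or below 33.7.

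The control-high region with the highest control score was not among these 15, and was picked out after its values were seen. It lay at chr17:78550930-78551635, with a score of 72 in the control and of 30 in each DKO library, and with ranks of 99.4, 63.4 and 55.7. At the other end, the regions nearest to the threshold showed how small the differences there were. Scores are given for the control, DKO replicate 1 and DKO replicate 2. Just inside it, chr5:138628254-138629454 had scores of 23, 21 and 22 and a margin of 25.11 points, chr12:25901474-25902101 had 23, 21 and 19 and a margin of 25.11, and chr4:43043916-43044711 had 23, 19 and 24 and a margin of 25.16. Just outside it, chr2:166538987-166539787 had scores of 31, 24 and 30 and a margin of 24.96 points. The regions chr17:56904137-56904965 and chr6:61129830-61130836 had 28, 25 and 28 and 28, 23 and 28, both with a margin of 24.93. The margins of these groups were thus nearly equal, although the regions just inside had lower scores in each library than those just outside.

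The distances between peak centres, which the rule did not use, were much the same as at other shared regions. Each of the 490 regions held exactly 1 peak of each library. The median region width was 714 bp, with a range from 603 to 1279 bp. The control centre was a median of 65.5 bp from that of DKO replicate 1 and 69 bp from that of DKO replicate 2, and the DKO centres were 65 bp apart. Over all shared regions these distances were 67, 67 and 57 bp. Control-low regions had larger offsets between the control and the DKO libraries, of 93 and 88 bp, against 57 bp between the DKO libraries. The control and DKO centres were thus about as far apart in control-high regions as in shared regions in general. All 3 centres lay within 100 bp of each other in 218 control-high regions. In 63 regions the control centre was over 100 bp from both DKO centres while these were within 100 bp of each other, and whether the compared peaks are the same site there was not tested. No matching values over all shared regions are given for these 2 counts, the widths or the number of peaks. Whether they are unusual was therefore not assessed. Centres over 300 bp apart were found in 19 regions for DKO replicate 1 (3.88%, against 4.79% of all shared regions) and in 16 for DKO replicate 2 (3.27%, against 4.53%).

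The control-high regions lay on all 19 autosomes, in unequal shares of the shared regions there. Intervals on shares are Wilson 95% intervals, which cover counting error over regions and not variation between libraries, and are not adjusted for the number of shares given. The highest shares were on chromosome 16, with 30 of 356 regions (8.43%, 5.97 to 11.8%), and chromosome 1, with 49 of 607 (8.07%, 6.16 to 10.5%). The lowest were on chromosome 19, with 6 of 239 (2.51%, 1.16 to 5.37%), chromosome 17, with 12 of 406 (2.96%, 1.70 to 5.09%), and chromosome 7, with 21 of 664 (3.16%, 2.08 to 4.79%). These 5 intervals leave out the overall share of 5.46%, and those of the other autosomes include it. On chromosome 17 the opposite class was the most frequent of any autosome, with 43 control-low regions (10.6%, 7.96 to 14.0%).

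Chromosomes also differed when a DKO library was put in the control's place. DKO replicate 1 ranked highest in 8.37% of the shared regions of chromosome 19, 7.69% of chromosome 11 and 7.15% of chromosome 4, against 2.48% of chromosome 13. DKO replicate 2 ranked lowest in 9.21% of those of chromosome 19 and 8.53% of chromosome 11, against 3.48% of chromosome 6. Differences between chromosomes of this size therefore also appeared between replicates of 1 genotype. Their part in the control-high shares was not tested.

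**Figure D4:**
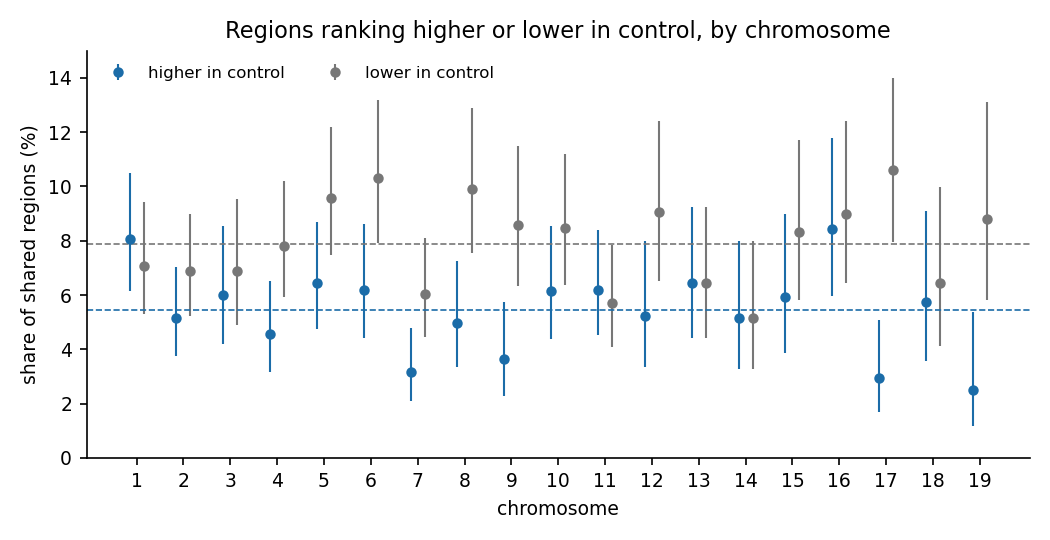
Share of the shared regions of each autosome (x axis) that ranked higher (blue) or lower (grey) in the control (y axis, percent), with Wilson 95% intervals. Dashed lines mark the shares over all autosomes, 5.46% and 7.87%; chromosomes 7, 17 and 19 lie below the blue line with their intervals, and chromosomes 1 and 16 above it.

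The neighbourhood of the control-high regions was examined next. They were about as densely surrounded as other shared regions. Within 100 kb a control-high region had a mean of 3.98 other regions, of which 1.42 were shared, against 3.96 and 1.51 over all shared regions. No other region lay within 100 kb of 41 control-high regions (8.37%, against 7.21% of all shared regions). The median gap to the nearest other region was 17722 bp, against 20147 bp over all shared regions. The nearest control-only region was closer than at other shared regions, at a median of 81511 bp against 102358 bp. The nearest DKO-only region was slightly further, at 170664 bp against 159990 bp.

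Control-only regions made up a larger part of the library-restricted neighbours of control-high regions. Over all shared regions, control-only regions were 60.0% (58.5 to 61.5%) of the control-only and DKO-only regions within 50 kb. Near control-high regions they were 233 of 337 (69.1%, 64.0 to 73.8%). Near control-low regions they were 221 of 401 (55.1%, 50.2 to 59.9%). The share thus moved in the direction of the region itself. The difference was smaller at greater distance, with 64.8% (60.9 to 68.4%) within 100 kb against 60.5% over all shared regions, and 62.5% (60.4 to 64.6%) within 500 kb against 60.9%. Within 10 kb there were only 43 control-only and 20 DKO-only neighbours, or 68.3% (56.0 to 78.4%), against 57.1%.

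The share was also set beside those of the other groups. Regions in which either DKO library ranked lowest likewise have a control rank at least 25 points above that library. Near those of DKO replicate 1, control-only regions were 67.1% (60.7 to 73.0%) of such neighbours within 50 kb. Within 10, 100 and 500 kb they were 74.5%, 65% and 63.5%, each above the control-high values of 68.3%, 64.8% and 62.5%. Near those of DKO replicate 2 they were 55.4% (50.1 to 60.6%) within 50 kb, and 44.4%, 58.0% and 58.5% within 10, 100 and 500 kb. Within 50 kb of regions in which DKO replicates 1 and 2 ranked highest, the share was 53.9% (47.6 to 60.1%) and 56.5% (48.6 to 64.1%). Near steady regions, whose 3 ranks lay within 10 points of each other and whose control rank was 25 or more, it was 59.3% (56.4 to 62.2%). Differences between these shares were not tested. The control-only share within 50 kb of control-high regions did not rise with the margin. It was 70.9% for margins from 25 to 30 points, 68.9% from 30 to 40, 74.4% from 40 to 50 and 55.8% (41.1 to 69.6%) above 50.

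The ranks of shared neighbours were compared after leaving out every neighbour that itself met the 25-point rule for the control in either direction, since the rule had set those. Of the 276 remaining shared regions within 50 kb of a control-high region, 161 (58.3%, 52.4 to 64.0%) had a control rank above the mean of their DKO ranks. With the same regions left out, the share over all shared regions with a shared neighbour in that distance was 50.3% (48.8 to 51.9%). The mean of control rank minus mean DKO rank was 2.79 points at these neighbours, against 0.42 points over all. Near control-low regions the share was 43.9% (39.2 to 48.8%) and the mean difference was -2.08 points. Leaving out the neighbours that met the rule takes the largest differences out of these means. Their size therefore cannot be set against the 25 points required of the region itself. By margin of the control-high region, the share within 50 kb was 61.2% from 25 to 30 points, 56.5% from 30 to 40 and 52.6% from 40 to 50. Above 50 points it was 77.3% (56.6 to 89.9%), from only 22 neighbours. Within 100 kb the share near control-high regions was 55.3% (51.1 to 59.5%), against 50.1% over all. Within 10 kb, 18 of 36 shared neighbours had the higher control rank, so no difference was detectable at the shortest distance with this number of regions.

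The same was computed with a DKO library in the control's place, again without the neighbours that met the rule for that library. Near regions in which DKO replicate 1 ranked highest, 74.5% (69.1 to 79.3%) of the 275 remaining shared neighbours within 50 kb ranked higher in that library than in the mean of the others, against 61.8% (60.3 to 63.2%) over all shared regions. For DKO replicate 2 the values were 59.8% (50.6 to 68.4%) of 112 neighbours, against 47.7% (46.2 to 49.2%). Within 50 kb the share was thus above that over all shared regions for each of the 3 libraries. Within 100 kb the value for DKO replicate 2 was 51.5% (45.1 to 57.9%), an interval that includes the 47.8% over all shared regions.

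**Figure D5:**
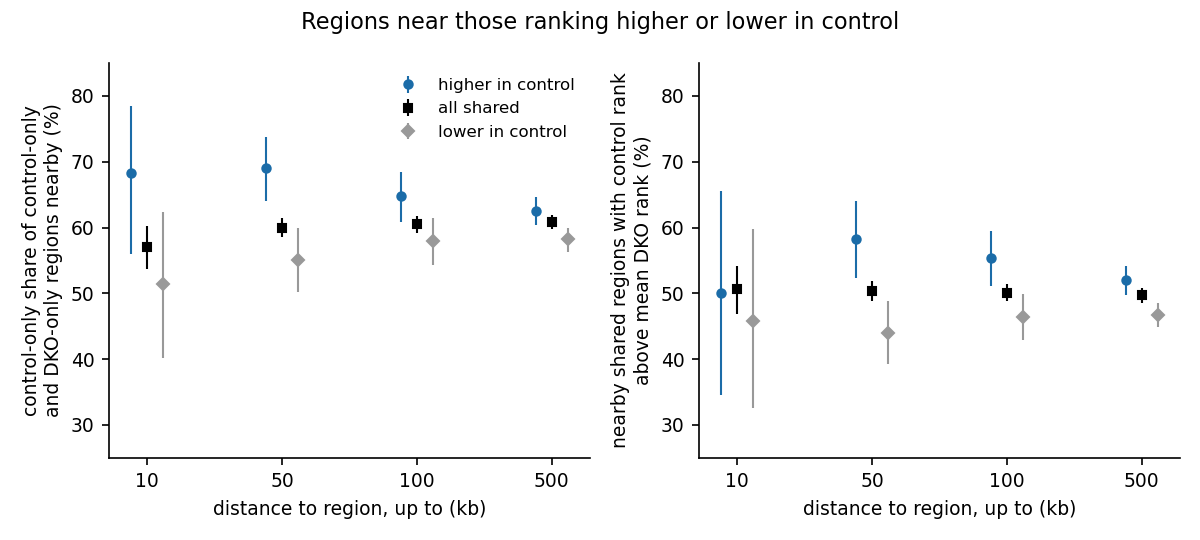
Neighbours of control-high, control-low and all shared regions at distances up to 10, 50, 100 and 500 kb (x axis). The left panel gives control-only regions as a percentage of control-only and DKO-only regions, the right panel the percentage of shared neighbours with a control rank above the mean DKO rank, without neighbours that met the 25-point rule for the control, each with a Wilson 95% interval; the control-high values at 50 kb are 69.1% and 58.3%.

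Control-high regions lay near a control-high region more often than shared regions in general did, but most stood alone. Within 100 kb of another control-high region lay 58 of the 490 (11.8%), against 7.22% of all shared regions. The matching shares for a control-low region within 100 kb were 10.8% and 10.1%. Joining control-high regions no more than 100 kb apart gave 23 pairs, 4 runs of 3 and 432 single regions. Runs held 13.7% of the regions with margins from 25 to 30 points and 12.3% of those above 50, so membership of a run did not follow the margin.

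The tightest run of 3 covered 76232 bp at chr4:149867397-149943628. Its control-high regions had scores of 28, 24 and 19, of 34, 28 and 29, and of 21, 15 and 22 in the control and DKO replicates 1 and 2. Their margins were 28.7, 27.3 and 26.7 points, all near the threshold. Between them lay a DKO-only region with scores of 25 and 29 and a control-only region with a score of 16.

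The run at chr1:138807421-138889003 had clearer differences in its first regions. Their scores were 34, 17 and 26 at chr1:138807421-138808163 and 40, 21 and 30 at chr1:138856904-138857581, with margins of 43.6 and 36.2 points. The third, chr1:138888353-138889003, had scores of 19, 17 and 20. The DKO ranks at these regions were 13.5 and 42.0, 33.7 and 55.7, and 13.5 and 12.3 in replicates 1 and 2. The run at chr17:83566072-83667313 had scores of 24, 18 and 21, of 31, 19 and 28, and of 21, 16 and 22. The remaining run of 3, at chr16:88540199-88632263, ended in the third region of the margin order described above. It also held a shared region in which the control did not stand above both DKO libraries, and a DKO-only region with scores of 31 and 52. The closest pair of all lay at chr4:41701820-41707683, with scores of 30, 22 and 27 and of 31, 26 and 26, within 5864 bp and with no other region between them. None of these stretches held control-high regions alone, except for this pair.

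The choice of the list length decided which regions counted as control-high. With all deposited peaks, 269 regions met the rule among 10120 shared autosomal regions, and 119 of the original 490 were among them. With 12000 peaks per list 354 regions met it, 166 of them among the original 490. A shorter list leaves out the weakest peaks, and the rule picks regions whose DKO peaks are weak. Of the 490, 140 had both DKO ranks under 25. A region that loses a peak in this way is no longer shared, and the number so lost was not counted. All 490 remained in a region shared by the full lists, and the control still ranked above both DKO libraries by some margin in 471. Their median rank stayed at 76.6 in the control, was 34.0 in DKO replicate 1 and rose to 54.7 in DKO replicate 2, whose longer list adds weak peaks below them. Accordingly 297 regions kept 25 points over DKO replicate 1 but not over DKO replicate 2, and 15 the reverse.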

How the data were processed

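ATAC-seq was measured in 3 libraries, grouped by their titles: 1 control and 2 DKO. Each library has a peak list, in which the authors deposited fixed windows with a whole-number score. What the score measures, the peak threshold, filters and the handling of duplicates are not given in the sources used here. Per the submitters' processing notes, mm9, FastQC 0.11.3, Bowtie2 2.2.6, deepTools 2.4.2 and MACS 1.4.1 were used. Such windows and scores resemble summit heights as MACS writes them, which would rise with depth. On 10 of 21 chromosomes a peak lay past the last gene of the GRCm38 table, so that table was not used.

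Regions, ranks (ties averaged) and neighbours were computed with Python 3.11.15, pandas 2.3.3, numpy 2.4.6 and scipy 1.17.1. Ties at the list limit were settled by file order. Distances run between region edges, each neighbour counted once per group, and leaving out neighbours that met the rule was chosen after the data had been seen. Positions are 1-based. The region rule was checked on simulated lists with planted shifts that were large against the noise. The simulated scores had no whole-number ties, every region was in all lists and no list was cut. That check therefore covers the computation only and not how the rule behaves on these lists. No test was made: with 1 control library no genotype p-value can be had, and regions are not replicates.

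The members and lists were chosen with earlier results of these data known. Regions were named by a rule: the 15 widest margins, the 3 regions on each side of the threshold and up to 5 runs. The parts of the rule that need genes or sequence, and the gene lists, were not used.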

Additional observations from a re-analysis of the deposited data

How the results depend on the processing

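The counts of control-high and control-low regions stayed within 1.5 times of 490 and 707 with 12000 peaks per list, with 20 or 30 points, with random ties, with peaks trimmed to 200 bp or merged across 1 kb, and with ranks among shared regions only. The regions themselves changed more: 166 of the 490 met the rule with 12000 peaks and 430 with ranks among shared regions only. Part of the loss with 12000 peaks follows from the cut, which leaves out weak DKO peaks of the kind the rule picks. Ranks among shared regions only reversed the order of the 2 counts, with 658 control-high and 620 control-low regions. All deposited peaks gave 269 and 1237. The added setting of a relative score 1.5 times above both DKO libraries gave 455 control-high regions, 333 of them among the 490, and 336 in the opposite direction, which also reversed their order. Scores moved against the rule by 1, 2 and 3 units, also an added setting, left 315, 194 and 120. Leaving out each DKO replicate in turn gave 1343 to 1487 control-high and 1208 to 1513 control-low regions, since only 1 DKO library then had to be lower or higher.

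Near control-high regions (within 100 kb), the control-only share was 64.8% and the share of shared neighbours with a higher control rank, without those that met the rule, 55.3%. With all deposited peaks these fell to 49.4% and 47.3%, where all shared regions gave 44.9% and 38.9%. Both stayed above the value over all shared regions in the 8 settings in which they were recomputed. Runs held 58 control-high regions at 100 kb, 36 at 50 kb and 98 at 250 kb. No paired analysis was possible because no test was made and the 1 control library carries no replicate number. The alternatives for start sites and the HNF4 sequence were not run. The unknown depth limits every score: a difference of a few units near the threshold could not be told from error in 1 library.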

Other observations

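Outside chromosomes 1 to 19, 182 regions were shared by the 3 libraries. The 25-point rule was met by 9 of them in the direction of the control and by 22 in the opposite direction. They belong to no count above.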
